A study of Chelonia mydas with 15 samples.

Results

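The 10 genes described here are regulators of the neural plate border and the neural crest: TFAP2A, MSX1, DLX5, ZIC1, PAX3, PAX7, DLX2, EYA2, SNAI2 and TWIST1. They were chosen by name from the 23730 named genes in a table of RNA sequencing counts of green sea turtle (Chelonia mydas) embryos. The choice was made with earlier results of these data known, and all 10 genes were found in the table. Of these, 9 had enough counts to enter the test across 16639 genes, and PAX7 did not. The embryos of this turtle stop developing in the oviduct and go on after laying, and the study compared eggs kept without and with oxygen after laying. Hypoxia eggs spent 36 h below 8 mmHg oxygen, in bags of nitrogen buried in sand. Normoxia eggs spent the same time in sand at about 159 mmHg, and freshly laid embryos were extracted within 1 h of laying. Both incubations were at 26 to 28 °C. Each group has 5 libraries of total RNA from frozen embryos, and no genotype, sex or clutch, nor whether a library is 1 embryo or a pool, is given in the sources used here. Among the normoxia libraries are 2 pairs of neighbouring sample numbers, and whether these share a source is not given either. The p-values thus cover no more than the spread between the libraries as sampled.

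The neural plate border is the strip of ectoderm between the future nervous system and the future skin. In chick, mouse, frog and zebrafish embryos, BMP, WNT and FGF signals switch on border specifiers there, among them TFAP2A, MSX1, DLX5, ZIC1, PAX3 and PAX7. These in turn switch on crest specifiers such as SNAI2 and TWIST1, and the crest cells then lose their epithelial contacts and migrate to form pigment cells, peripheral neurons and much of the face. Most of these genes are also used elsewhere in vertebrate embryos, for example TWIST1, SNAI2 and MSX1 in mesoderm and TFAP2A in the surface ectoderm.

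Depth was 17.6 to 20.8 M counts in hypoxia, 18.3 to 26.8 M in normoxia and 14.5 to 21.8 M in freshly laid embryos. Levels are in CPM, the counts of a gene relative to its library total, after scaling for library composition by TMM, and ± is the SD over 5 libraries. A gene was called where its adjusted p from edgeR's quasi-likelihood test was under 0.05. The column headers carry an index number for each library, and 5 libraries (hypoxia replicate 1, normoxia replicates 1, 3 and 5, freshly laid replicate 1) have numbers of 12 to 18 while the other 10 have numbers of 1 to 11.

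At 36 h the normoxia embryos had higher levels of both crest specifiers, of the coactivator EYA2 and of the border genes ZIC1 and DLX5 than either other group. Hypoxia embryos had 5 of the 9 tested genes lower than normoxia embryos (SNAI2, TWIST1, ZIC1, EYA2 and DLX5) and 2 higher (DLX2 and TFAP2A). Across all tested genes, 48.8% were called in that comparison, 23.2% as lower and 25.7% as higher. Against freshly laid embryos, hypoxia embryos had 4 genes higher (TWIST1, ZIC1, DLX2 and TFAP2A) and 1 lower (SNAI2), where 40.3% of all tested genes were called, 20.9% as higher and 19.4% as lower. TWIST1 and ZIC1 had fewer than 10 counts in every hypoxia and freshly laid library and passed the filter on low counts only through their normoxia libraries. When the hypoxia and freshly laid libraries were fitted alone, 7 of the 10 genes were tested and 1, DLX2, was called. The 40.3% belongs to the fit of all libraries, and the share of all genes called in this smaller fit is not given here. Normoxia embryos had 5 genes higher than freshly laid embryos (TWIST1, ZIC1, SNAI2, DLX5 and EYA2) and 0 lower, where 31.2% of all tested genes were called, 15.2% as higher and 16.1% as lower. In bulk RNA, fewer cells of a type and less RNA per cell cannot be told apart.

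**Figure D1:**
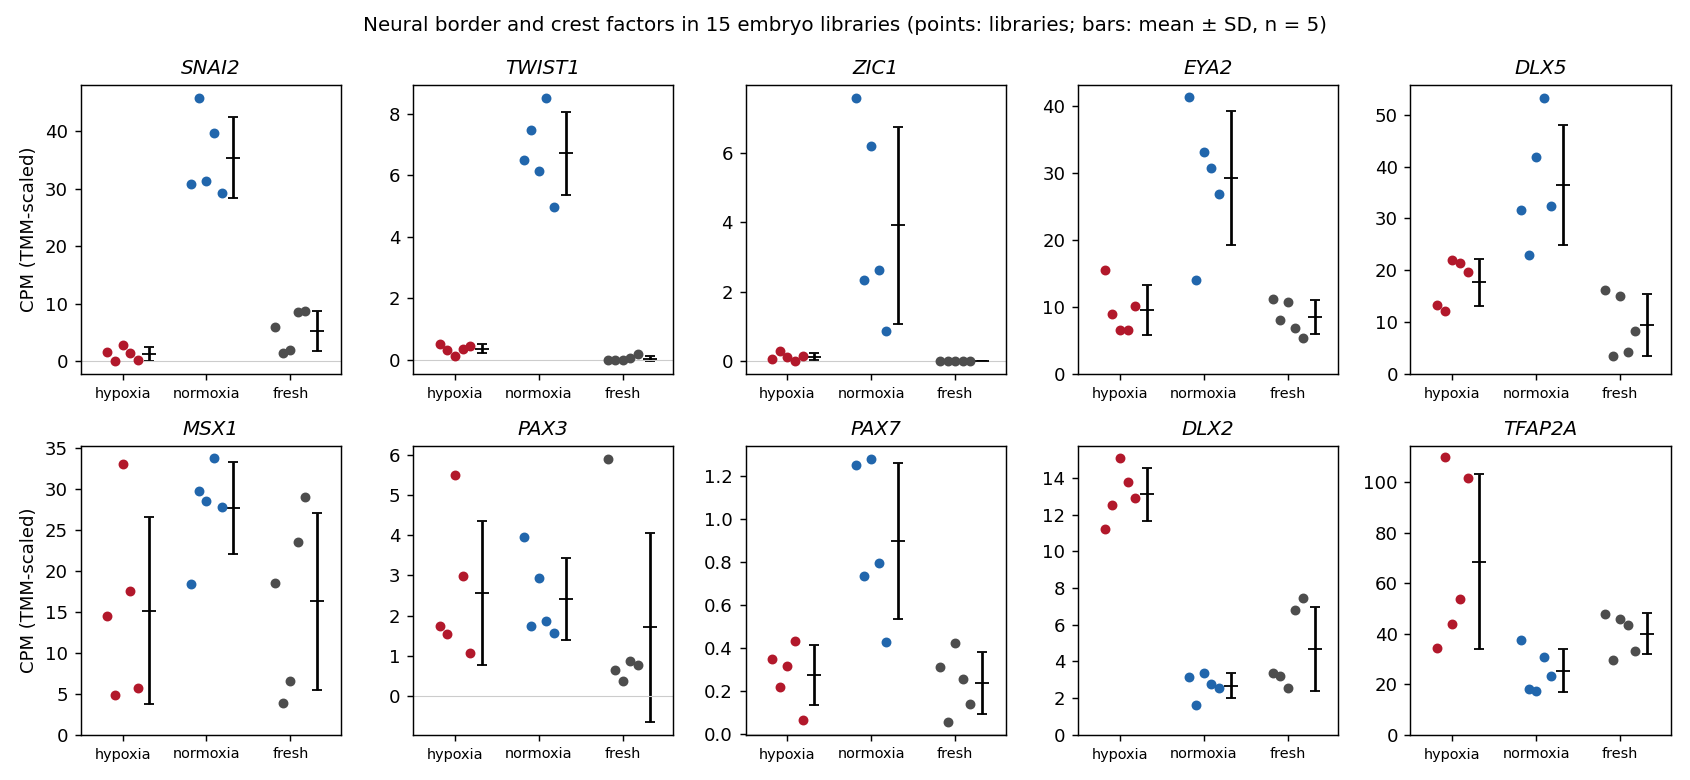
Level of each gene in CPM (vertical axes, each with its own scale) in the 5 libraries of hypoxia, normoxia and freshly laid embryos; points are libraries and bars the mean ± SD. All 5 normoxia libraries lie above all others for SNAI2 and TWIST1, and all 5 hypoxia libraries lie above all others for DLX2.

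The median log2 fold change of the 9 tested genes was -1.04 in hypoxia against normoxia, 0.78 in hypoxia against freshly laid and 1.79 in normoxia against freshly laid, beside 0.06, 0.03 and -0.00 over all tested genes; these 9 include TWIST1 and ZIC1, which were tested because normoxia is high. The range over the 9 genes was -4.96 to 2.29, -2.10 to 4.30 and -0.81 to 9.26 in the same order of comparisons. The 4.30 and 9.26 are of ZIC1 against freshly laid embryos, which had no count, so they depend on the fit and are no bound. The next highest values there were 2.65 and 6.83, both of TWIST1. The 3 comparisons share libraries pairwise, so their values are given side by side and are not independent of each other. The groups did not overlap in CPM for 5 of the 10 genes in hypoxia against normoxia, 4 of them lower and 1 higher, against 36.3% of all tested genes, 18.3% lower and 18% higher. In hypoxia against freshly laid this held for 1 gene, DLX2, which was higher, against 24% of all tested genes in either direction and 12.2% higher. In normoxia against freshly laid it held for 6 genes, all higher, against 23.5% of all tested genes in either direction and 12% higher. These 6 include PAX7, which is not among the tested genes that the shares cover. They also include TWIST1 and ZIC1, as do the 5 in hypoxia against normoxia.

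**Figure D2:**
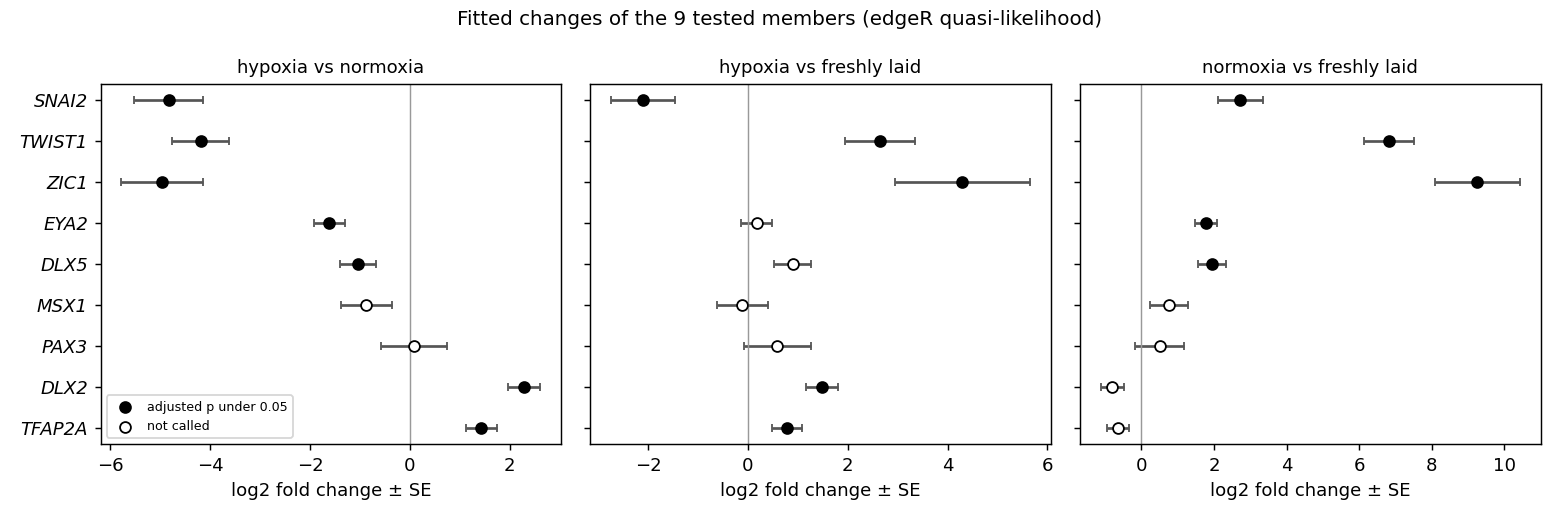
Fitted log2 fold changes with standard errors of the 9 tested genes (horizontal axes) in the 3 comparisons, filled where the adjusted p was under 0.05. SNAI2, TWIST1 and ZIC1 lie below -4 in hypoxia against normoxia, and DLX2 and TFAP2A lie above 0; the fitted values of ZIC1 against freshly laid embryos, which had no count, depend on the fit and are no bound.

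TFAP2A encodes AP-2alpha, a border specifier that also acts in the non-neural ectoderm. It had 34.2, 109.9, 43.9, 53.7 and 101.5 CPM in the hypoxia libraries, 37.5, 18.1, 17.5, 30.8 and 23.4 CPM in the normoxia libraries, and 47.9, 29.7, 45.8, 43.6 and 33.3 CPM in the freshly laid libraries. Hypoxia replicates 2 and 5 were the highest of all 15 libraries, and hypoxia replicate 1 was below normoxia replicate 1. The mean was 68.6 ± 34.7 CPM in hypoxia, 25.4 ± 8.58 CPM in normoxia and 40.1 ± 8.06 CPM in freshly laid embryos. The log2 fold change in hypoxia against normoxia was 1.43 (SE 0.31, adjusted p = 0.000909). It was 0.78 in hypoxia against freshly laid (SE 0.30, adjusted p = 0.0481) and -0.66 in normoxia against freshly laid (SE 0.30, adjusted p = 0.107). The call against freshly laid embryos was lost when any of 9 libraries was left out, namely hypoxia replicates 2 (log2 fold change 0.54, adjusted p = 0.159) and 5 (0.59, adjusted p = 0.136), normoxia replicates 4 and 5, or any freshly laid replicate (adjusted p of 0.0532 to 0.111 for these 7).

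Other AP-2 genes were measured as well. TFAP2C, the AP-2gamma gene of early ectoderm, had 69.5, 242, 88.0, 141 and 263 CPM in hypoxia, 58.5, 15.4, 30.4, 56.3 and 45.1 CPM in normoxia, and 219, 132, 121, 158 and 115 CPM in freshly laid embryos. Its highest hypoxia libraries were replicates 2 and 5, as for TFAP2A, and all 5 hypoxia libraries were above all 5 normoxia libraries (log2 fold change 1.97, SE 0.38, adjusted p = 0.000408). Normoxia embryos were also below freshly laid embryos (log2 fold change -1.86, SE 0.38, adjusted p = 0.00163), while hypoxia and freshly laid embryos differed by 0.11 (SE 0.37, adjusted p = 0.836). TFAP2B averaged 2.27 ± 2.06 CPM in hypoxia, 0.221 ± 0.0851 CPM in normoxia and 0.430 ± 0.811 CPM in freshly laid embryos and was called higher in hypoxia than in normoxia (log2 fold change 3.31, SE 1.02, adjusted p = 0.0125). TFAP2E averaged 19.1 ± 8.27 CPM in hypoxia, 31.7 ± 11.3 CPM in normoxia and 4.20 ± 3.31 CPM in freshly laid embryos. It was called higher than freshly laid in hypoxia (log2 fold change 2.19, SE 0.48, adjusted p = 0.00165) and in normoxia (2.92, SE 0.49, adjusted p = 0.000378), and was not called between the 36 h groups (adjusted p = 0.195).

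MSX1 encodes a homeodomain factor that BMP signals turn on at the border and in mesoderm. Its 5 hypoxia libraries held 14.5, 4.81, 33.1, 17.5 and 5.77 CPM, its normoxia libraries 18.5, 29.9, 28.6, 33.8 and 27.8 CPM, and its freshly laid libraries 18.6, 3.85, 6.64, 23.6 and 29.0 CPM. The hypoxia and freshly laid libraries spread widely, and both overlapped the narrower normoxia range. The highest library was 6.87 times the lowest in hypoxia, 1.83 times in normoxia and 7.53 times in freshly laid embryos. The log2 fold changes were -0.87 in hypoxia against normoxia (SE 0.51, adjusted p = 0.169), -0.11 in hypoxia against freshly laid (SE 0.51, adjusted p = 0.882) and 0.76 in normoxia against freshly laid (SE 0.51, adjusted p = 0.269). Without hypoxia replicate 3 the first of these was -1.38 (adjusted p = 0.0317). MSX2, its paralogue, averaged 3.14 ± 1.66 CPM in hypoxia, 24.9 ± 13.9 CPM in normoxia and 3.13 ± 3.56 CPM in freshly laid embryos. Every hypoxia library was below every normoxia library for MSX2 (log2 fold change -2.99, SE 0.71, adjusted p = 0.00224), and normoxia was above freshly laid (2.98, SE 0.71, adjusted p = 0.00465).

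HAND1, a factor of lateral mesoderm and heart, had the profile most like that of MSX1 and was chosen for this. Ordered from high to low, the hypoxia libraries were replicates 3, 4, 1, 5 and 2 for MSX1 and for HAND1, which had 114, 41.0, 22.9, 9.87 and 2.68 CPM in that order. SNAI2 gave the same order except that replicates 1 and 4 changed places. In the freshly laid group MSX1 and SNAI2 both ran in the order 5, 4, 1, 3 and 2, and HAND1 had 106.5, 40.5, 22.5, 3.68 and 4.37 CPM in that order. In normoxia the orders differed, with replicates 4, 2, 3, 5 and 1 for MSX1, 2, 4, 3, 1 and 5 for SNAI2, and 3, 4, 2, 5 and 1 for HAND1. A sum of 12 lateral mesoderm and heart markers includes HAND1 itself, so it is not independent of that choice. This summed level was 866, 498, 364, 263 and 186 CPM in hypoxia replicates 3, 4, 1, 5 and 2, the order of MSX1. It was 449, 468, 527, 426 and 250 CPM in normoxia replicates 2, 4, 3, 5 and 1, and 319, 217, 133, 173 and 75.2 CPM in freshly laid replicates 5, 4, 1, 3 and 2, which in neither group is the order of MSX1. Of these 12 markers, GATA5, GATA6 and GATA4 averaged 158, 135 and 57.7 CPM in hypoxia and held most of the hypoxia sum. These GATA genes were called higher in hypoxia than in normoxia, while HAND1 and FOXF1 were called lower. Hypoxia replicates 2 and 5, the lowest of their group for MSX1 and SNAI2, were its highest for TFAP2A. The part of these markers in the differences between groups was not tested.

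**Figure D3:**
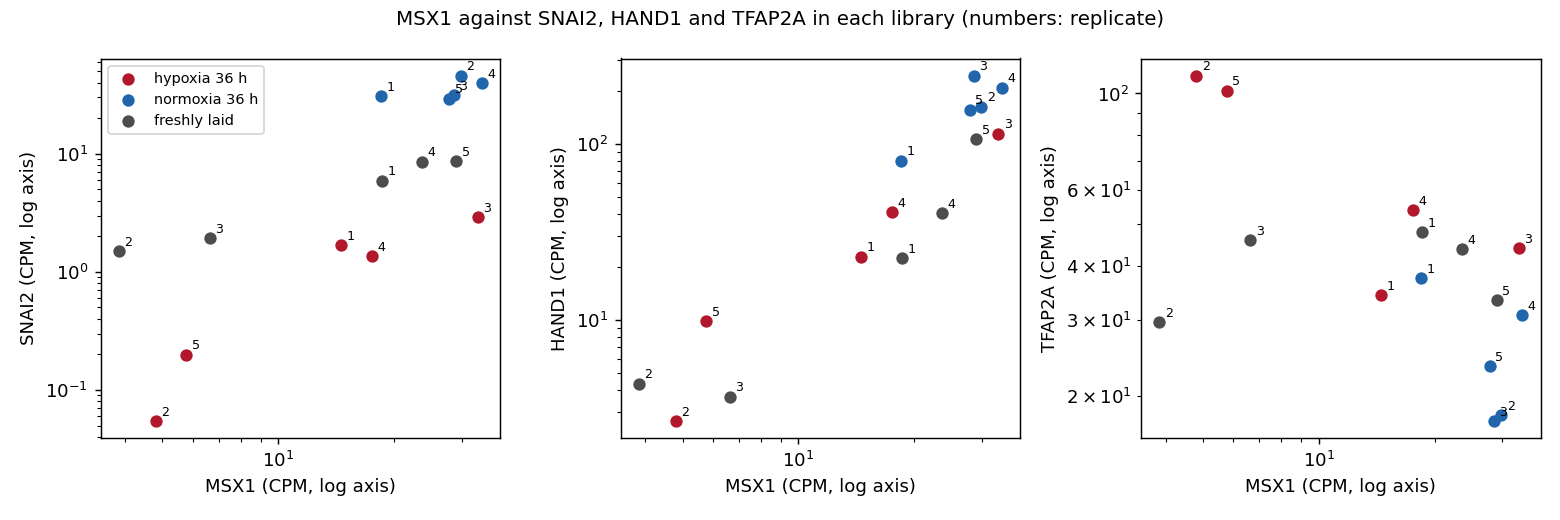
SNAI2, HAND1 and TFAP2A (vertical axes, CPM, log) against MSX1 (horizontal axes, CPM, log) in each of the 15 libraries; point labels are replicate numbers. SNAI2 and HAND1 are lowest where MSX1 is low in hypoxia and freshly laid libraries, and hypoxia replicates 2 and 5 combine low MSX1 with the highest TFAP2A.

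DLX5, a homeobox gene of the border, placodes and pharyngeal arches, had 13.3, 12.2, 21.96, 21.3 and 19.6 CPM in hypoxia, 31.6, 22.9, 41.8, 53.3 and 32.5 CPM in normoxia, and 16.1, 3.45, 15.1, 4.29 and 8.35 CPM in freshly laid embryos. All normoxia libraries were above all others, and the hypoxia and freshly laid libraries overlapped. The log2 fold change was -1.04 in hypoxia against normoxia (SE 0.37, adjusted p = 0.0263), 0.90 in hypoxia against freshly laid (SE 0.37, adjusted p = 0.0611) and 1.95 in normoxia against freshly laid (SE 0.38, adjusted p = 0.00111). The hypoxia against normoxia call was lost without hypoxia replicate 1 (adjusted p = 0.0597) or 2 (0.0639), or without normoxia replicate 3 (0.0531) or 4 (0.0763), and in the 10 libraries of index numbers 1 to 11 (adjusted p = 0.158). Hypoxia was called above freshly laid without freshly laid replicate 1 (log2 fold change 1.18, adjusted p = 0.0216) or 3 (1.13, adjusted p = 0.0287).

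DLX2, a homeobox gene known from the crest of the pharyngeal arches and from the forebrain, ran the other way. It had 11.2, 12.5, 15.1, 13.8 and 12.9 CPM in hypoxia, 3.13, 1.62, 3.36, 2.75 and 2.53 CPM in normoxia, and 3.39, 3.22, 2.53, 6.80 and 7.44 CPM in freshly laid embryos. The 5 hypoxia libraries were above all others and their SD of 10.9% of the mean was the lowest of the 10 genes in any group. The log2 fold change was 2.29 in hypoxia against normoxia (SE 0.32, adjusted p = 2.08e-05) and 1.48 in hypoxia against freshly laid (SE 0.32, adjusted p = 0.00131). These calls held in all 25 alternative fits of each. In normoxia against freshly laid the value was -0.81 (SE 0.32, adjusted p = 0.0608), and it was called when freshly laid replicate 1, 2 or 3 was left out (-0.90, -0.92 and -0.96, adjusted p = 0.0467, 0.0481 and 0.0278).

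DLX2 and DLX5 each lie near a second DLX gene on the opposite strand in the assembly used for the counts, rCheMyd1.pri. An unnamed locus starts nearer to DLX5, at 7.66 kb. DLX6, 8.64 kb from DLX5, had 0.695, 0.547, 0.757, 0.558 and 0.994 CPM in hypoxia, 2.65, 3.91, 4.47, 4.92 and 2.53 CPM in normoxia, and 0, 0, 0.784, 0.0511 and 0.230 CPM in freshly laid embryos. All normoxia libraries were above all others for DLX6, as for DLX5. Its log2 fold change was -2.37 in hypoxia against normoxia (SE 0.70, adjusted p = 0.00947) and 4.09 in normoxia against freshly laid (SE 0.77, adjusted p = 0.000908). DLX1, 10.36 kb from DLX2, was at 0.201 ± 0.250 CPM in hypoxia, 0.174 ± 0.0995 CPM in normoxia and 0.0720 ± 0.0693 CPM in freshly laid embryos, too low to be tested. DLX3 averaged 2.10 ± 3.32 CPM in hypoxia, 5.68 ± 1.14 CPM in normoxia and 0.493 ± 0.267 CPM in freshly laid embryos, and was called in normoxia against freshly laid (log2 fold change 3.53, SE 0.84, adjusted p = 0.00472).

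ZIC1 encodes a zinc finger border specifier that also acts in the dorsal neural tube and somites. It had 1, 5, 2, 0 and 2 counts in the hypoxia libraries, 157, 60, 179, 59 and 18 counts in the normoxia libraries and 0 counts in all 5 freshly laid libraries. In CPM this was 0.0579, 0.273, 0.126, 0 and 0.133 in hypoxia and 7.57, 2.32, 6.20, 2.62 and 0.858 in normoxia. The lowest normoxia library was above every hypoxia library, and the normoxia libraries differed among themselves by 8.82 times. The log2 fold change in hypoxia against normoxia was -4.96 (SE 0.82, adjusted p = 0.000217). For a ratio, the 0 in freshly laid embryos was replaced by 3 counts over the 5 libraries, the limit that a count of 0 allows. The ratio to freshly laid was then 121 in normoxia (quasi-likelihood adjusted p = 9.85e-05) and 3.68 in hypoxia (adjusted p = 0.0218). The counts in normoxia and hypoxia were taken as exact, so these ratios cover the counting error of the 0 only. ZIC1, too, was tested in the 3 comparisons only because its normoxia libraries are high. The call in hypoxia against freshly laid rests on 10 counts in hypoxia and was lost without hypoxia replicate 2 (adjusted p = 0.0553).

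ZIC4 lies 6.43 kb from ZIC1 on the opposite strand and showed another pattern. It had 6.37, 7.76, 2.08, 2.17 and 4.84 CPM in hypoxia, 1.11, 0.696, 0.969, 1.51 and 0.811 CPM in normoxia, and 0.314, 0.460, 0.121, 0.767 and 0.0459 CPM in freshly laid embryos. All hypoxia libraries were above all others. The log2 fold change was 2.18 in hypoxia against normoxia (SE 0.56, adjusted p = 0.0039) and 3.74 in hypoxia against freshly laid (SE 0.62, adjusted p = 0.000152). ZIC2 averaged 56.0 ± 18.4 CPM in hypoxia, 57.5 ± 24.3 CPM in normoxia and 77.3 ± 27.8 CPM in freshly laid embryos. It was not called in any of the 3 comparisons, where the adjusted p ran from 0.222 to 0.928. ZIC5 was called only in normoxia against freshly laid (log2 fold change 1.41, SE 0.47, adjusted p = 0.0297).

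PAX3, a paired-box border specifier that also marks somites, was not called in any comparison. It had 1.74, 1.53, 5.49, 2.98 and 1.06 CPM in hypoxia, 3.95, 1.74, 2.94, 1.86 and 1.57 CPM in normoxia, and 5.90, 0.633, 0.362, 0.869 and 0.780 CPM in freshly laid embryos. Freshly laid replicate 1 was the highest of all 15 libraries and the other 4 freshly laid libraries were the lowest, so the 3 groups overlapped. The fitted change on the log2 scale was 0.08 in hypoxia against normoxia (SE 0.66, adjusted p = 0.928), 0.59 in hypoxia against freshly laid (SE 0.67, adjusted p = 0.511) and 0.51 in normoxia against freshly laid (SE 0.67, adjusted p = 0.592). Without freshly laid replicate 1 the values against freshly laid embryos were 1.93 in hypoxia (adjusted p = 0.00946) and 1.85 in normoxia (adjusted p = 0.0163). Leaving it out took the number of the 10 genes called in normoxia against freshly laid to 8, where it was 5 with all libraries, in a fit that also tested PAX7. Calls over all genes in that fit are not given here, so this count does not set the 10 genes apart from other genes.

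PAX7, the paralogue of PAX3, had too few counts for the test across genes. Its counts were 6, 4, 5, 7 and 1 in hypoxia, 26, 19, 37, 18 and 9 in normoxia, and 5, 1, 7, 5 and 3 in freshly laid embryos. In CPM the means were 0.276 ± 0.140 in hypoxia, 0.899 ± 0.364 in normoxia and 0.237 ± 0.144 in freshly laid embryos. All normoxia libraries were above all freshly laid libraries, and the lowest normoxia library, at 0.429 CPM, was just below the highest hypoxia library, at 0.434 CPM. A two-sided exact permutation test over all splits of 5 against 5 gave p = 0.0159 for hypoxia against normoxia, p = 0.651 for hypoxia against freshly laid and p = 0.00794 for normoxia against freshly laid, the smallest that it can give. Adjusted over these 3 comparisons, the exact permutation p was 0.0238, 0.651 and 0.0238.

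EYA2 encodes a coactivator with phosphatase activity that acts in the preplacodal ectoderm. It had 15.5, 9.02, 6.56, 6.51 and 10.1 CPM in hypoxia, 41.3, 14.1, 33.1, 30.7 and 26.8 CPM in normoxia, and 11.2, 8.11, 10.7, 6.90 and 5.37 CPM in freshly laid embryos. Normoxia replicate 2, the lowest of its group, was below hypoxia replicate 1, and all normoxia libraries were above all freshly laid libraries. The fitted log2 change was -1.61 in hypoxia against normoxia (SE 0.31, adjusted p = 0.000345) and 1.79 in normoxia against freshly laid (SE 0.31, adjusted p = 0.000451). Between hypoxia and freshly laid it was 0.17 (SE 0.30, adjusted p = 0.679). Of the other EYA genes, EYA1 was not called in any comparison, EYA3 was called lower in normoxia than in freshly laid embryos (log2 fold change -0.50, SE 0.14, adjusted p = 0.0132), and EYA4 was called higher in hypoxia than in freshly laid embryos (2.06, SE 0.67, adjusted p = 0.0213).

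SNAI2, the Slug gene, encodes a zinc finger repressor that lowers cell adhesion genes as crest and mesoderm cells leave an epithelium. It had 1.68, 0.0547, 2.90, 1.36 and 0.199 CPM in hypoxia, 30.9, 45.8, 31.4, 39.7 and 29.3 CPM in normoxia, and 5.90, 1.495, 1.93, 8.59 and 8.68 CPM in freshly laid embryos. The normoxia libraries lay within 1.56 times of each other and far above the rest, and hypoxia replicates 2 and 5, with 1 and 3 counts, were lowest of all. The mean was 1.24 ± 1.17 CPM in hypoxia, 35.4 ± 7.06 CPM in normoxia and 5.32 ± 3.48 CPM in freshly laid embryos. SNAI2 was the only one of the 9 tested genes called lower in hypoxia than in freshly laid embryos (log2 fold change -2.10, SE 0.64, adjusted p = 0.014; 0.057 when only these 10 libraries were fitted). It was 28.5-fold lower in hypoxia than in normoxia (log2 fold change -4.83, SE 0.69, adjusted p = 2.15e-05) and 6.63-fold higher in normoxia than in freshly laid embryos (2.73, SE 0.61, adjusted p = 0.00299). In the 10 libraries of index numbers 1 to 11 the values against freshly laid embryos were -2.20 in hypoxia (adjusted p = 0.0735) and 3.04 in normoxia (adjusted p = 0.0595). SNAI1, its paralogue, averaged 117 CPM in hypoxia, 124 CPM in normoxia and 115 CPM in freshly laid embryos and was not called in any comparison (adjusted p of 0.848 to 0.955).

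TWIST1 encodes a basic helix-loop-helix factor of crest and mesoderm. It had 0.521, 0.328, 0.126, 0.372 and 0.464 CPM in hypoxia (9, 6, 2, 6 and 7 counts), 6.51, 7.46, 6.13, 8.51 and 4.96 CPM in normoxia, and 0, 0, 0, 0.0511 and 0.184 CPM in freshly laid embryos (0, 0, 0, 1 and 4 counts). Every normoxia library was above every other library, and the lowest hypoxia library was below freshly laid replicate 5. On the log2 scale the change was -4.19 in hypoxia against normoxia (SE 0.57, adjusted p = 1.33e-05), 2.65 in hypoxia against freshly laid (SE 0.70, adjusted p = 0.00593) and 6.83 in normoxia against freshly laid (SE 0.69, adjusted p = 4.79e-06). TWIST1 was tested in the 3 comparisons only because its normoxia libraries are high. With the normoxia libraries left out TWIST1 was too low to be tested in hypoxia against freshly laid. Over summed counts the ratio to freshly laid embryos was 6.62 in hypoxia, with a 95% interval for counting error of 2.54 to 21.9, and 123 in normoxia, with an interval of 52.4 to 379. Without freshly laid replicate 5, which holds 4 of the 5 freshly laid counts, the log2 fold changes against freshly laid were 4.14 in hypoxia and 8.34 in normoxia. TWIST2 had no count in the hypoxia libraries and averaged 0.196 CPM in normoxia and 0.0102 CPM in freshly laid embryos, and was too low to be tested.

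Per kilobase of exon, the order of the mean levels differed between the groups. In hypoxia TFAP2A (17.8 ± 8.99 CPM per kb), MSX1 (13.4 ± 10.1) and DLX5 (12.9 ± 3.35) came first and overlapped within 1 SD, ahead of DLX2 (8.27 ± 0.906) and EYA2 (3.20 ± 1.23), which did not overlap each other or their neighbours. Below these in hypoxia, PAX3 (0.922 ± 0.643), SNAI2 (0.598 ± 0.564), TWIST1 (0.255 ± 0.107), PAX7 (0.151 ± 0.0766) and ZIC1 (0.0479 ± 0.0416) each overlapped their neighbours. In normoxia DLX5 (26.5 ± 8.40 CPM per kb), MSX1 (24.5 ± 5.02) and SNAI2 (17.1 ± 3.41) were highest, and neighbours in this order again overlapped. They were followed by EYA2 (9.81 ± 3.35), TFAP2A (6.60 ± 2.23), TWIST1 (4.73 ± 0.949), DLX2 (1.69 ± 0.425), ZIC1 (1.59 ± 1.15), PAX3 (0.870 ± 0.365) and PAX7 (0.490 ± 0.198), where SNAI2 did not overlap EYA2 and TWIST1 did not overlap DLX2. In freshly laid embryos MSX1 (14.5 ± 9.59 CPM per kb), TFAP2A (10.4 ± 2.09) and DLX5 (6.89 ± 4.31) were highest, and DLX2, EYA2 and SNAI2 lay between 2.57 and 2.95, each overlapping its neighbours. PAX3 (0.616 ± 0.848), PAX7 (0.129 ± 0.0784), TWIST1 (0.0330 ± 0.0560) and ZIC1 (no count) were lowest in freshly laid embryos. SNAI2 thus ranked 7th in hypoxia, 3rd in normoxia and 6th in freshly laid embryos.

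**Figure D4:**
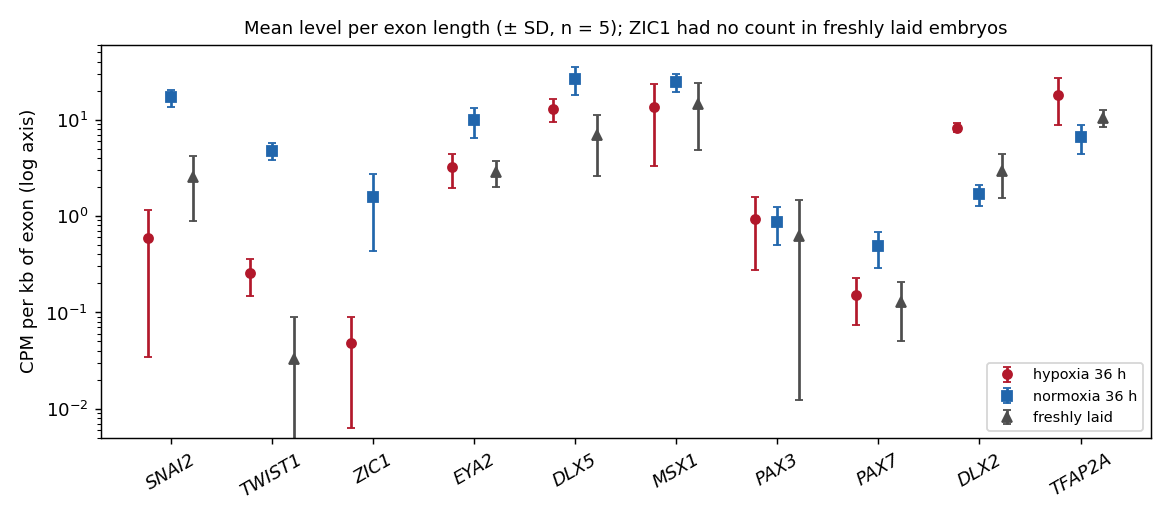
Mean level of each gene per kilobase of exon (vertical axis, CPM per kb, log) in hypoxia, normoxia and freshly laid embryos, with SD over 5 libraries; ZIC1 in freshly laid embryos is at 0 and not drawn. SNAI2, TWIST1 and ZIC1 are highest in normoxia and DLX2 and TFAP2A highest in hypoxia.

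The gene models differ in size. TWIST1, MSX1, DLX2, SNAI2, DLX5 and ZIC1 span 2.21 to 4.38 kb with 2 or 3 exon blocks, TFAP2A spans 21.8 kb with 10, and PAX3, PAX7 and EYA2 span 118, 148 and 153 kb with 9, 9 and 18. EYA2 overlaps an unnamed locus on the other strand, and counting used strand, per the file headers. A further unnamed locus ends 0.098 kb before TFAP2A. SNAI2, TFAP2A, TWIST1 and DLX5 lie on the same assembled sequence, as do ZIC1 and PAX3.

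The likeness of profiles was measured as the root mean square difference of log2 CPM standardised over the 15 libraries, against 12088 named genes of at least 1 CPM on average, for which the median was 1.34 or more. FOXC2, a factor of paraxial mesoderm, and TP63, a factor of the epidermis, were nearest to TWIST1 (0.250 and 0.268). MSGN1, a presomitic mesoderm factor, and RDH10, an enzyme of retinoic acid synthesis, were nearest to ZIC1 (0.293 and 0.311). MSGN1 had 1 library above 0 in hypoxia, at 0.0631 CPM, between 6.10 and 30.8 CPM in normoxia and 0 in all freshly laid libraries. HAND1 was nearest to MSX1 (0.325), RANBP10 and HDAC5 to DLX2 (0.279 and 0.287), HOXD1 and LRRN3 to SNAI2 (0.344 each), and ULK4 and WASF1 to TFAP2A (0.385 and 0.398). NEXN was near to DLX5 (0.408), and ARFRP1 and ACAP3 were nearest to EYA2 (0.422 and 0.455). PAX3 had no profile as near, the first being VEGFB at 0.547. Among the 9 genes, TWIST1 and ZIC1 were most alike (0.376), then ZIC1 and EYA2 (0.504), and SNAI2 and TFAP2A were least alike (1.86). These values describe 15 libraries in 3 groups, so a gene that differs between groups in the same way comes out as near.

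Genes of the same pathway were followed in further lists that hold none of the 10. These lists were also chosen with earlier results of these data known. Of 13 tested other border specifiers and paralogues, hypoxia embryos had 4 higher and 3 lower than normoxia embryos, with a median log2 fold change of -0.52. The higher ones were PRDM1, a repressor that acts in zebrafish border cells (log2 fold change 1.49, SE 0.18, adjusted p = 4.04e-06), and TFAP2C, ZIC4 and TFAP2B, and the lower ones were MSX2, DLX6 and GBX2. Against freshly laid embryos 3 were higher and 0 lower in hypoxia, and 6 were higher and 1 lower in normoxia. Over all tested genes, 25.7% were called higher and 23.2% lower in hypoxia than in normoxia. The shares were 20.9% and 19.4% in hypoxia against freshly laid, and 15.2% and 16.1% in normoxia against freshly laid. These shares also stand beside the counts of the crest, placodal, ligand and migration lists that follow. GBX2, a WNT target at the border in frogs, averaged 0.447 ± 0.315 CPM in hypoxia, 2.07 ± 1.37 CPM in normoxia and 0.100 ± 0.0908 CPM in freshly laid embryos.

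Of 14 tested other crest specifiers, 3 were higher and 5 lower in hypoxia than in normoxia, 3 higher and 0 lower in hypoxia than in freshly laid embryos, and 5 higher and 1 lower in normoxia than in freshly laid embryos. MYCN, a MYC family factor of crest and neural progenitors, averaged 76.9 ± 12.7 CPM in hypoxia, 31.9 ± 1.35 CPM in normoxia and 30.6 CPM in freshly laid embryos. It was higher in hypoxia than in normoxia (log2 fold change 1.27, SE 0.13, adjusted p = 6.95e-07) and than in freshly laid embryos (1.33, SE 0.13, adjusted p = 1.07e-06). SOX10, the defining factor of migrating crest, had 0.637, 1.75, 2.52, 2.11 and 2.65 CPM in hypoxia, 0, 0.309, 0.173, 0.399 and 0.238 CPM in normoxia, and 1.44, 2.13, 1.51, 2.76 and 3.86 CPM in freshly laid embryos. All normoxia libraries were below all others for SOX10, unlike SNAI2 and TWIST1 (log2 fold change 3.07 in hypoxia against normoxia, SE 0.63, adjusted p = 0.000659; -3.34 in normoxia against freshly laid, SE 0.63, adjusted p = 0.000906). The BMP targets ID1, ID2, ID3 and ID4 were all called lower in hypoxia than in normoxia, ID2 by the most (5.22 ± 4.16 CPM in hypoxia and 38.3 ± 21.2 CPM in normoxia). The remaining one of the 5 lower genes was SOX9, with means of 5.79 CPM in hypoxia, 10.1 CPM in normoxia and 3.74 CPM in freshly laid embryos. Like SNAI2 and TWIST1, SOX9 was lower in hypoxia than in normoxia (log2 fold change -0.80, SE 0.30, adjusted p = 0.0376). It was also higher in normoxia than in freshly laid embryos (1.43, SE 0.31, adjusted p = 0.00241). FOXD3, another defining crest gene, averaged 1.37 CPM in hypoxia, 2.96 CPM in normoxia and 1.25 CPM in freshly laid embryos and was not called in any comparison (adjusted p of 0.204 to 0.894).

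Of 11 tested placodal factors, 0 were higher and 2 lower in hypoxia than in normoxia (PAX2 among the lower), 3 higher and 0 lower in hypoxia than in freshly laid embryos, and in normoxia 3 were higher and 2 lower than in freshly laid embryos. Of 16 tested ligands and inhibitors that act on the border, 1 was higher and 4 lower in hypoxia than in normoxia. The higher one was FGF8 (6.20 CPM in hypoxia and 0.887 CPM in normoxia, log2 fold change 2.79, SE 0.70, adjusted p = 0.00336). In freshly laid embryos FGF8 averaged 5.97 ± 4.37 CPM. Hypoxia was not called against this level (log2 fold change 0.05, adjusted p = 0.957), and normoxia was called lower (-2.74, SE 0.70, adjusted p = 0.00739). The genes lower in hypoxia than in normoxia were the secreted WNT inhibitors SFRP1 and SFRP2, the BMP inhibitor GREM1 and FGF3. SFRP1 averaged 14.4 CPM in hypoxia, 61.7 CPM in normoxia and 19.3 CPM in freshly laid embryos (hypoxia against normoxia -2.09, SE 0.32, adjusted p = 4.67e-05). BMP4, a border inducer, averaged 40.4 CPM in hypoxia, 47.2 CPM in normoxia and 41.4 CPM in freshly laid embryos and was not called in any comparison (adjusted p of 0.54 to 0.934). BMP2 was called higher than freshly laid in hypoxia (log2 fold change 1.71, adjusted p = 0.00324) and in normoxia (1.89, adjusted p = 0.00261). BMP7 was called lower than freshly laid in hypoxia (-1.26, adjusted p = 0.00578) and in normoxia (-0.99, adjusted p = 0.0298). Neither was called between the 36 h groups (adjusted p = 0.731 and 0.512). Against freshly laid embryos the ligand list had 2 higher and 2 lower in hypoxia and 5 higher and 3 lower in normoxia.

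Of the 20 delamination and migration genes tested, 5 were higher and 4 lower in hypoxia than in normoxia, 5 higher and 1 lower in hypoxia than in freshly laid embryos, and 8 higher and 4 lower in normoxia than in freshly laid embryos. Of all tested genes, 48.8%, 40.3% and 31.2% were called in these comparisons, in the same order. The 4 lower ones in hypoxia were the guidance receptor NRP2 (11.1 CPM in hypoxia and 85.7 CPM in normoxia, log2 fold change -2.94, SE 0.34, adjusted p = 2.36e-06) and the cadherins CDH7, CDH6 and CDH11. CDH7 averaged 2.31 CPM in hypoxia, 28.5 CPM in normoxia and 3.70 CPM in freshly laid embryos. The receptor PDGFRA was among those higher in hypoxia than in normoxia (211 CPM in hypoxia, 50.7 CPM in normoxia and 51.0 CPM in freshly laid embryos, log2 fold change against normoxia 2.06, SE 0.28, adjusted p = 1.23e-05), as were MMP9, ERBB3, TNC and RHOB. PDGFRA, ERBB3 and RHOB were also called higher in hypoxia than in freshly laid embryos, while MMP9 and TNC were not (adjusted p = 0.102 and 0.374). In normoxia MMP9 (log2 fold change -1.50, adjusted p = 0.000641), TNC (-1.69, adjusted p = 0.000255) and ERBB3 (-0.71, adjusted p = 0.0383) were lower than in freshly laid embryos.

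**Figure D5:**
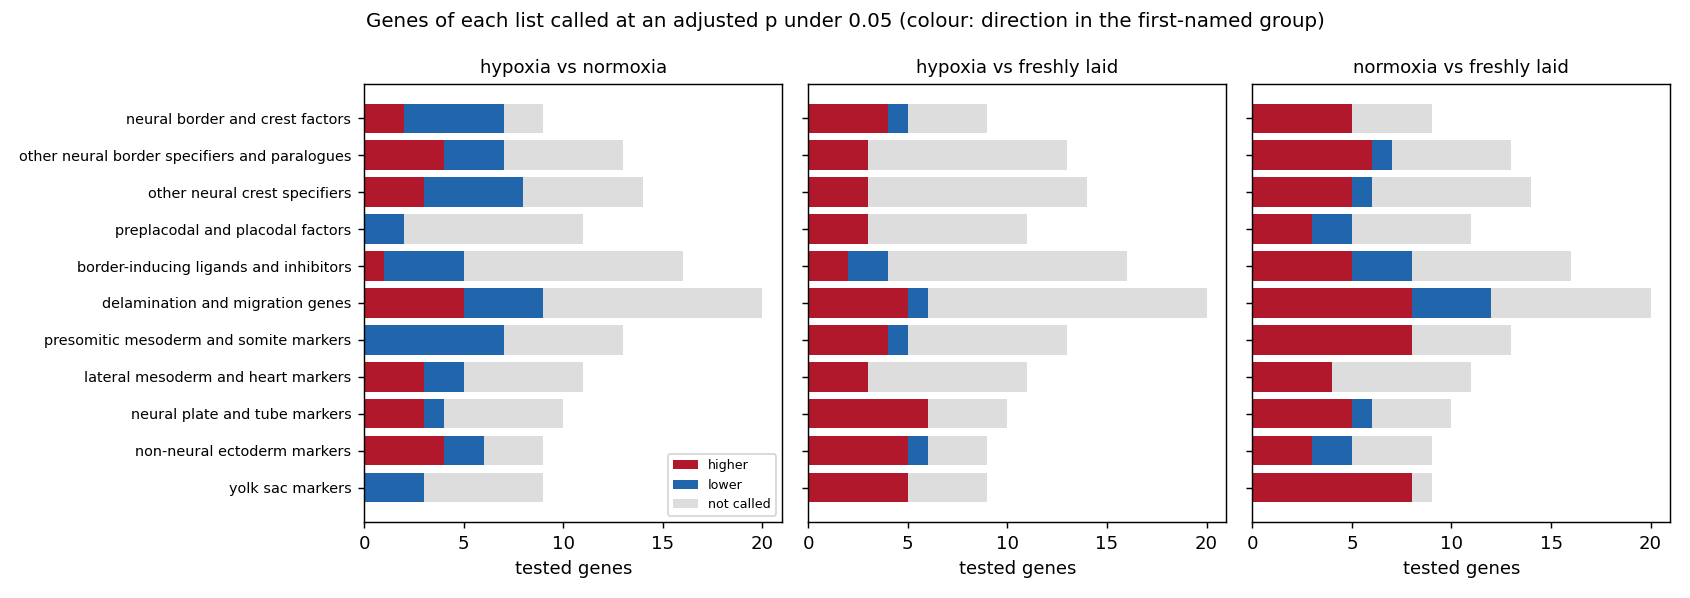
Number of tested genes (horizontal axes) called higher, lower or not called in the first-named group of each comparison, for the 10 genes described here and the 10 other lists. In hypoxia against normoxia the presomitic and somite list has 7 lower and 0 higher of 13, and the border and crest lists have genes in both directions. Of all tested genes, 23.2% were lower and 25.7% higher.

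Markers of other cell types were followed in 5 further lists, beside the 25.7% of all tested genes called higher and 23.2% called lower in hypoxia than in normoxia. In hypoxia against freshly laid embryos these shares were 20.9% higher and 19.4% lower. The summed level of 16 presomitic and somite markers was 72.2 to 112 CPM in hypoxia, 164 to 216 CPM in normoxia and 112 to 170 CPM in freshly laid embryos, and 0 of 13 tested ones were called higher and 7 lower in hypoxia than in normoxia. LFNG, the highest of this list, averaged 68.9 CPM in hypoxia, 60.8 CPM in normoxia and 84.6 CPM in freshly laid embryos, and 4 of the 13 were called higher and 1 lower in hypoxia than in freshly laid embryos. MSGN1, UNCX and PAX1 of this list were at 0 in all freshly laid libraries. The 17 neural plate and tube markers summed to 104 to 175 CPM in hypoxia, 63.6 to 109 CPM in normoxia and 116 to 204 CPM in freshly laid embryos, with 3 of 10 tested called higher and 1 lower in hypoxia than in normoxia, and NEUROG2, NKX2-2, OLIG2, DBX1 and EN1 at 0 in freshly laid embryos. SOX3 held most of this sum, at 105 CPM in hypoxia, 56.4 CPM in normoxia and 153 CPM in freshly laid embryos, while 6 of the 10 were called higher and 0 lower in hypoxia than in freshly laid embryos. The 9 non-neural ectoderm markers summed to 3775 to 5868 CPM in hypoxia, 1632 to 2124 CPM in normoxia and 1981 to 3723 CPM in freshly laid embryos, with 4 of 9 called higher and 2 lower in hypoxia than in normoxia. The keratins KRT18 and KRT8 held most of the hypoxia sum, at 2147 and 1472 CPM, against 386 and 236 CPM in normoxia. The 2 lower ones were TP63 (log2 fold change -2.61, adjusted p = 0.000226) and GRHL3 (-0.89, adjusted p = 0.0311). The 12 lateral mesoderm and heart markers summed to 186 to 866 CPM in hypoxia, 250 to 527 CPM in normoxia and 75.2 to 319 CPM in freshly laid embryos, with 3 of 11 called higher and 2 lower in hypoxia than in normoxia, so that the 36 h groups overlapped. The 12 yolk sac markers summed to 99.3 to 869 CPM in hypoxia, 76.0 to 1422 CPM in normoxia and 41.1 to 73.3 CPM in freshly laid embryos, with 0 of 9 called higher and 3 lower in hypoxia than in normoxia, and FABP2 at 0 in freshly laid embryos; here too the 36 h groups overlapped. The part of these markers in the results for the 10 genes was not tested.

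Within the 10 libraries of index numbers 1 to 11, hypoxia embryos had 4 genes called lower than normoxia embryos, with log2 fold changes of -5.25 for SNAI2, -4.61 for TWIST1, -4.13 for ZIC1 and -1.48 for EYA2. DLX2 (2.63) and TFAP2A (1.66) were called higher, and the adjusted p of these 6 genes ran from 0.00153 to 0.0133. In these libraries normoxia has 2 replicates. The count of genes called was 4 in hypoxia against freshly laid and 4 in normoxia against freshly laid. In hypoxia against freshly laid TWIST1 (adjusted p = 0.0671) and SNAI2 (0.0735) lost their calls, so the 4 include a gene not called with all libraries. SNAI2 also lost its call in normoxia against freshly laid (0.0595). Calls over all genes fell as well in hypoxia against normoxia and in normoxia against freshly laid, as given in the last section. The counts are thus no result about the 10 genes alone. The libraries of index numbers 12 to 18 hold only 1 hypoxia and 1 freshly laid library and give no value of their own. In hypoxia against freshly laid, leaving out hypoxia replicate 2 took the count of genes called to 3, where it was 5 with all libraries. The share of all genes called without that library is not given here.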

How the data were processed

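The authors deposited raw gene counts for each library. The submitters' processing notes name STAR, featureCounts and limma. Per the file headers, featureCounts 1.6.2 counted reads of mapping quality 10 or more over the exons of the rCheMyd1.pri annotation, using strand setting 2. A further 3 count columns belong to none of the listed samples and were left out. An entry with no gene name held 0.0553 to 0.334% of counts and stayed out of totals and tests. No pair of libraries of the same group agreed within sampling noise.

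Genes were filtered with filterByExpr and libraries scaled with TMM in edgeR 4.0.16 (R 4.3.3). All 15 libraries entered 1 quasi-likelihood model with group means (12 residual degrees of freedom, common biological coefficient of variation 0.367), and p was adjusted by Benjamini and Hochberg over 16639 genes. Ratios to a group without counts use 3 counts over the group and take the counts of the other group as exact. The fitted log2 fold changes of ZIC1 against freshly laid embryos do not use these 3 counts. Intervals and limits cover counting error only. Alternatives were DESeq2 1.42.0, limma-voom (limma 3.58.1), other scalings and filters, smaller sets of libraries and leaving out each library in turn. Named beside the 10 genes are for each list and comparison up to 3 tested genes of lowest adjusted p, and the 2 nearest profiles of each gene. A few others were named after their values were seen: paralogues and neighbours of the 10 genes, SNAI1, FOXD3, BMP4, CHRD, TWIST2, the ID genes and the remaining genes called within a list. The 10 genes and the lists were chosen with earlier results of these data known. On counts simulated for hypoxia against normoxia (15979 genes run), the test called 72.0% of genes lowered by a log2 change of -2 and 84.0% of those raised by 2, and 25% and 40% at -1 and 1. The simulation changed 200 genes and used only the 10 libraries of these 2 groups. The main fit used 15 libraries and called 48.8% of genes there, so the simulated shares do not give its recovery. Some genes of the lists are counted but not reported here by name.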

Additional observations from a re-analysis of the deposited data

Results flagged for a closer look

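The level of each of the 10 genes in each group, 30 groups of 5 libraries in all, was searched for a library far from the other 4, which chance alone gives in about 1 in 20 groups. In 2 of the 30 a library stood apart. PAX3 in freshly laid replicate 1 was at 5.90 CPM, against 0.869 CPM in the next library and 0.362 CPM in the lowest. Outside the 10 genes searched, this library also differed from the other freshly laid libraries. It had 13 of the 17 neural plate and tube markers at 0, against 6 or 7 in the others. The BMP inhibitor CHRD was at 0.251 CPM, against 115 to 491 CPM in the others, and FGF8 was at 0.0628 CPM, against 2.53 to 9.51 CPM. TWIST1 in freshly laid replicate 5 was at 0.184 CPM, against 0.0511 CPM in the next library and 0 CPM in the lowest, a difference of 4 counts against 1.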

How the results depend on the processing

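Of 673 values of single genes under alternative settings, 615 kept their direction and their side of the threshold, 31 lost the call and 15 gained one. The other 12 changed sign with no call before or after, in EYA2 and MSX1 in hypoxia against freshly laid and PAX3 in hypoxia against normoxia. Leaving out each library in turn gave 6 to 9 genes called in hypoxia against normoxia (7 with all libraries), 3 to 6 in hypoxia against freshly laid (5) and 5 to 8 in normoxia against freshly laid (5). With only the libraries of both groups compared, 1 gene was called in hypoxia against freshly laid, of 7 tested. A fit of 10 libraries tests fewer of the 10 genes. For this fit and those that leave out a library, the share of all genes called is not given here. Their counts thus do not set the 10 genes apart from other genes. Over all genes, hypoxia against normoxia had 8123 calls and 4789 in the 10 libraries of index numbers 1 to 11, an alternative chosen after seeing the data. Normoxia against freshly laid had 5193 calls, 1413 in those 10 libraries and 2987 with normoxia libraries of neighbouring sample numbers summed; both use fewer samples. Scaling by library totals alone shifted the median log2 fold change to -0.26 in hypoxia against normoxia (2674 higher and 5600 lower, against 4268 and 3855) and to -0.29 in hypoxia against freshly laid (2088 higher and 5259 lower, against 3474 and 3227). The difference of PAX7 in hypoxia minus freshly laid was then -0.0116 CPM in place of 0.0389 CPM, and neither was called by the exact permutation test (p = 0.897 and 0.651). TFAP2A against freshly laid embryos was called in hypoxia in 8 of 25 alternatives, with the highest adjusted p, 0.238, under library totals. DLX5 was called in hypoxia against normoxia in 17 of 25. With limma-voom, ZIC1 in hypoxia against freshly laid had an adjusted p = 0.229, and MSX1 in hypoxia against normoxia was called (0.046). The labels give no replicate numbers, but the sample numbers fall into 5 ranges of 50 with 1 hypoxia, 0 to 2 normoxia and 1 freshly laid library each, and do not say whether a range marks a shared source. Deviations from the group means correlated at 0.04 to 0.32 within a range (15 pairs, 10 of them over 0.1). Between ranges the median was -0.042 in hypoxia against normoxia, -0.007 in hypoxia against freshly laid and -0.061 in normoxia against freshly laid. Of the 20 pairs of each comparison, 2, 0 and 0 were over 0.1. Libraries of a range were thus more alike across groups, and the main fit takes no account of the ranges. With the ranges as a block, chosen after seeing the data, 6, 5 and 5 of the genes were called in the 3 comparisons, and the share of all genes is not given. DLX5 lost its call in hypoxia against normoxia (-0.66, adjusted p = 0.176) and gained one against freshly laid (1.08, adjusted p = 0.0237), TFAP2A lost its call in hypoxia against freshly laid (0.68, adjusted p = 0.0991), and no other gene of the 9 changed its call. Depth limits ZIC1 and TWIST1, which had 10 and 30 counts over the hypoxia libraries and 0 and 5 over the freshly laid libraries.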
